A study of Homo sapiens with 8 samples.

Results

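The 10 genes described here belong to the BCL2 family, whose proteins decide whether the outer membrane of mitochondria stays intact. They were chosen by symbol: BCL2, BCL2L1, MCL1, BCL2L11, BAK1, BID, BAD, BIK, BMF and BOK, that is, family genes other than BAX, BBC3 and PMAIP1. All 10 were found among the 19414 genes of the deposited tables. Total RNA from U2OS cells, an established human osteosarcoma line, was sequenced. The labels give 4 genotypes with 2 libraries each. Zab+MYC cells carried Zab and overexpressed MYC (labelled Zab + MYC O/E), MYC cells overexpressed MYC (MYC O/E), Zab cells carried Zab alone, and WT cells carried neither. Zab is short for Zαβ, the name in general use for the part of the RNA editor ADAR1 that binds Z-form nucleic acids. The labels name no promoter, vector, clone or duration for either construct, and no agent or allele shared by the groups. Nor do they say whether paired libraries were separate cultures.

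In the BCL2 family, survival proteins (BCL2, BCL-XL made by BCL2L1, and MCL1) hold effector proteins such as BAK1 in check. BH3-only proteins (BCL2L11, also called BIM, and BID, BAD, BIK and BMF) bind the survival proteins or the effectors when a cell is damaged or starved of signals. Free effectors open the outer mitochondrial membrane, cytochrome c escapes, and caspases are switched on. Overexpressed MYC is known to make many cells more prone to this death, and survival proteins of the family are known to oppose it.

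Exon tags, the counted reads, numbered 686992 to 1326170 per library. Values are CPM, tags per 1e6 exon tags after TMM scaling, and tests are limma on log2(CPM + 2) over 9673 genes, two-sided, with a call at a Benjamini-Hochberg adjusted p under 0.05. The paired libraries of a group differed by about as much as counting noise (chi-square per degree of freedom 0.997 to 1.03), with no identical files. The p-values therefore measure spread that may be technical. ADAR averaged 1043 ± 34.7 CPM in Zab+MYC, 239 ± 11.8 in MYC, 6100 ± 138 in Zab and 267 ± 3.75 in WT (SD, n = 2). MYC averaged 706 ± 1.27, 1263 ± 37.1, 212 ± 25.1 and 83.7 ± 15.8 CPM in the same order, so that Zab cells, too, had more MYC transcript than WT (2.51-fold, limma adjusted p = 1.43e-20). The part of MYC's level in the Zab results was not tested. Of 8 bone and mesenchymal markers, VIM, SPARC and COL1A1 were abundant. RUNX2, MSX2 and ALPL averaged at most 19.6 CPM in any group, and COL1A2 and TWIST1 were at or near 0. The summed level, most of it VIM, was 7620 to 7746 CPM in Zab+MYC, 5319 to 5474 in MYC, 8483 to 8903 in Zab and 10111 to 10285 in WT. The marker lists of blood, epithelial and endothelial cells each summed to at most 6.31 CPM in any library.

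Promoters of the 4 genes that moved furthest are shown with a pair of short motifs that bear on the study's factors. Of a gene's windows the one shown is the first with CACGTG, or else the first with CGCGCG, or else the first, so a motif is shown wherever a gene has one. Each is the 250 bases before a transcription start in RefSeq (GRCh38.p14), on the gene's strand, 5′ to 3′. BCL2L1 is at chr20:31723964-31724213 (minus strand), BID at chr22:17773984-17774233 (minus), BAD at chr11:64284705-64284954 (minus) and BMF at chr15:40108880-40109129 (minus). Capitals mark CACGTG, the E-box letters that MYC and MAX bind, or CGCGCG, an alternating run of the kind that can take the left-handed Z form.
BCL2L1: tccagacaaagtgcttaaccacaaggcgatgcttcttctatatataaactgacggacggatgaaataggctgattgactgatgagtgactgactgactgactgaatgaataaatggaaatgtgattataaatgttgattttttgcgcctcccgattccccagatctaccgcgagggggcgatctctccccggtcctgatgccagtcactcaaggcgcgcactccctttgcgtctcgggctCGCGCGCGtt
BID: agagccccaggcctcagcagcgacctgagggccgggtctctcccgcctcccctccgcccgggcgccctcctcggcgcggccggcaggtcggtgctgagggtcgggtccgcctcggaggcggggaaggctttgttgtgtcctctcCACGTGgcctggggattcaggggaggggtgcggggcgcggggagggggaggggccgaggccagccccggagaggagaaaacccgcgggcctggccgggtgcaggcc
BAD: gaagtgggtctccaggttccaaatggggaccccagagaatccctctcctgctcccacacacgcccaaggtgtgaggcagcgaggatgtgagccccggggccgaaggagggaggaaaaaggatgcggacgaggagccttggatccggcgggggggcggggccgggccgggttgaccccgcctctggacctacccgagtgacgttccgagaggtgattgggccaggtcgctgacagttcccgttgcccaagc
BMF: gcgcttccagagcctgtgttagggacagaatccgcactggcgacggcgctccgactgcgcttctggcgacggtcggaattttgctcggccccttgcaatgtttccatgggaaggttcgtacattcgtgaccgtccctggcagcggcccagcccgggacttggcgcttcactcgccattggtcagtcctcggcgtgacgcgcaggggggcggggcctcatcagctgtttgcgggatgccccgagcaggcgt
Both motifs read the same on either strand. In BCL2L1 a CGCGCG run began 10 bases before the start, and in BID the E-box letters began 106 bases before it. BCL2L1 had its motif in 1 of 2 windows. Neither motif stood in either window of BAD or of BMF. RefSeq windows were at hand for 8 of the 10 genes, several with more than 1 start. CACGTG was found for 1 of these 8 genes (BID, in 2 of its 5 windows), against 7.73% of 27305 genes and 6.34% of 35116 windows of this length. CGCGCG was found for 3 genes (BCL2L1, BCL2L11 and BID, the last in 1 of 5 windows), against 16.6% of all genes and 14.1% of all windows. A match describes letters only, and the absence of one says nothing of binding.

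The survival gene BCL2L1 separated all 4 genotypes. It was counted at chromosome 20 from 30252261 to 30311766 (hg19, minus strand). BCL2L1 had 198 and 196 CPM in Zab+MYC, 75.7 and 65.0 CPM in MYC, 288 and 279.7 CPM in Zab, and 154 and 132 CPM in WT. Zab libraries were the highest, then Zab+MYC, then WT, and MYC the lowest, with no overlap between any groups. MYC cells had 2.01-fold less of it than WT cells (log2 -1.005 ± 0.123 SE, limma adjusted p = 7.99e-11), while Zab cells had 1.98-fold more than WT (0.98 ± 0.123, limma adjusted p = 9.9e-10). With MYC overexpressed in both groups, BCL2L1 in Zab+MYC exceeded that in MYC 2.76-fold (1.46 ± 0.123, limma adjusted p = 5.41e-16). Within Zab cells the direction with MYC was again down, as Zab+MYC stood 1.44-fold below Zab (-0.52 ± 0.123, limma adjusted p = 0.000653). The same groups were unequal in ADAR transcript too (1043 and 6100 CPM), and its part was not tested. Against WT, Zab+MYC was 1.37-fold higher (0.46 ± 0.123, limma adjusted p = 0.00167). That last call ended on the deposited scale (log2 0.08, adjusted p = 0.631) and without WT replicate 2 (0.35, adjusted p = 0.0533). The deposited scale multiplies each library by 1 factor of the authors'. Folder names in the file headers speak of a spike-in, but do not say whether the factor came from it. The scale shifted the median of all genes by log2 -0.37 in this comparison and by -0.51 in Zab against WT, where BCL2L1 stood at 0.44 (adjusted p = 0.00206) on it. Counting used 7 different BCL2L1 transcripts over the 8 libraries, with exon lengths of 2380 to 2569 bases.

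MCL1, the gene of a short-lived survival protein, passed no test at this scale. MCL1 lies on chromosome 1 from 150547027 to 150552214 (hg19, minus strand). It had 64.2 and 73.0 CPM in Zab+MYC, 91.5 and 74.9 CPM in MYC, 81.8 and 66.1 CPM in Zab, and 75.7 and 70.5 CPM in WT. MYC and Zab+MYC did not overlap, and the other pairs of groups did. No comparison was called: the log2 differences ran from -0.27 in Zab+MYC against MYC (95% interval -0.61 to 0.08, limma adjusted p = 0.301) to 0.18 in MYC against WT (-0.17 to 0.52, limma adjusted p = 0.391). Zab against WT gave 0.01 (-0.34 to 0.36, limma adjusted p = 0.98). On the deposited scale MCL1 was called lower in Zab against WT (log2 -0.52, adjusted p = 0.0101), in Zab+MYC against WT (-0.47, adjusted p = 0.0203) and when Zab+MYC was set against MYC (-0.59, adjusted p = 0.00517), where the median of all genes shifted by -0.51, -0.37 and -0.31.

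BCL2 itself, the founding survival gene, was close to the limit of detection. It lies on chromosome 18 from 60790579 to 60986613 (hg19, minus strand). BCL2 had 0.973 and 4.96 CPM in Zab+MYC, 2.80 and 2.38 CPM in MYC, 1.43 and 0 CPM in Zab, and 2.52 and 2.12 CPM in WT. These come from 4.5, 6, 1 and 4 tags per group in the same order, and fractional tags come from the authors' counting. The gene did not pass the filter on low values. The ratio of MYC to WT was 1.12 with a 95% counting interval of 0.265 to 5.38, and differences of that size were not detectable at this depth. Counting intervals here cover counting error only.

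**Figure D1:**
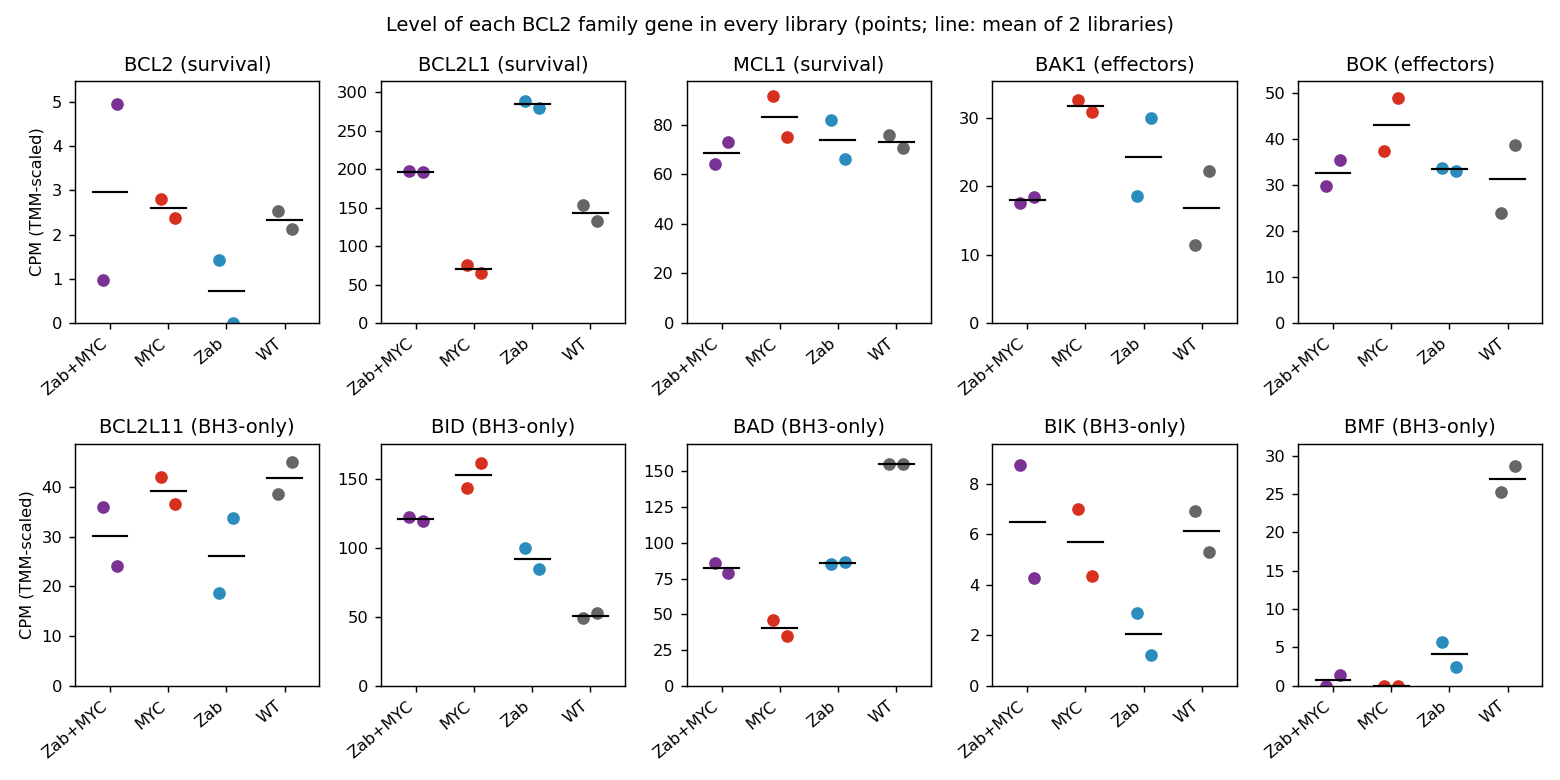
Level of each of the 10 genes in CPM (y axis, TMM-scaled, starting at 0, own scale per gene) in every library of the 4 genotypes (x axis); points are libraries and lines the mean of 2. BCL2L1 stands highest in Zab and lowest in MYC, BID lowest in WT, BAD highest in WT and lowest in MYC, and BMF near 0 outside WT.

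Among the effectors BAK1 moved, in a call that rested on single libraries. BAK1 opens pores in the outer mitochondrial membrane, and lies on chromosome 6 from 33540329 to 33548053 (hg19, minus strand). It had 17.5 and 18.4 CPM in Zab+MYC, 32.7 and 30.9 CPM in MYC, 18.6 and 29.99 CPM in Zab, and 11.4 and 22.2 CPM in WT. Both MYC libraries lay above all the others, while the Zab and WT libraries were widely spread and overlapped. MYC exceeded WT 1.88-fold in BAK1 (log2 0.91 ± 0.311, limma adjusted p = 0.00981). The call ended with DESeq2 (adjusted p = 0.117), without WT replicate 1 (log2 0.48, adjusted p = 0.268), without MYC replicate 1 (0.87, adjusted p = 0.0615) and with tags thinned to the smallest library (0.54, adjusted p = 0.224). For Zab+MYC against MYC the log2 difference was -0.76 (95% interval -1.38 to -0.14, limma adjusted p = 0.074), and was called by edgeR (adjusted p = 0.023), on the deposited scale (adjusted p = 0.00464) and with those 4 libraries alone (adjusted p = 0.0346). GENCODE names 2 BAK1 pseudogenes. Its tags may be shared with them, but how alike the sequences are was not tested.

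BOK, an effector relative that can act without BAX and BAK1, lies on chromosome 2 from 242498160 to 242513546 (hg19, plus strand). It had 29.7 and 35.4 CPM in Zab+MYC, 37.4 and 48.8 CPM in MYC, 33.7 and 33.0 CPM in Zab, and 24.0 and 38.7 CPM in WT. The MYC libraries lay above both Zab+MYC and Zab without overlap, and every other pair of groups overlapped. BOK was not called in any of these comparisons at this scale, with MYC against WT at log2 0.46 (95% interval -0.04 to 0.96, limma adjusted p = 0.112). It was called without WT replicate 2 in that comparison (0.78, adjusted p = 0.0257) and on the deposited scale in Zab+MYC against MYC (-0.69, adjusted p = 0.0254).

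Of the BH3-only genes, BID was higher in all 3 engineered genotypes than in WT. BID links death receptors to mitochondria once caspase-8 has cut its protein, and lies on chromosome 22 from 18216906 to 18257261 (hg19, minus strand). It had 122 and 119 CPM in Zab+MYC, 143 and 161 CPM in MYC, 99.7 and 84.5 CPM in Zab, and 49.2 and 52.4 CPM in WT. The order was MYC, Zab+MYC, Zab and WT, with no overlap. BID exceeded its WT level 2.92-fold in MYC cells (log2 1.55 ± 0.152, limma adjusted p = 2.74e-14), 2.32-fold in Zab+MYC cells (1.22 ± 0.152, limma adjusted p = 3.29e-10) and 1.78-fold in Zab cells (0.83 ± 0.152, limma adjusted p = 1.32e-05). The last call ended on the deposited scale (0.30, adjusted p = 0.0906), where the median of all genes shifted by -0.51. Neighbours in that order differed less surely. Zab+MYC against Zab gave 1.31-fold (0.39 ± 0.152, limma adjusted p = 0.0497), a call that ended under 13 of its 22 alternatives, among them the loss of Zab+MYC replicate 1 (adjusted p = 0.168), Zab+MYC replicate 2 (adjusted p = 0.135) or Zab replicate 2 (log2 0.27, adjusted p = 0.302). Zab+MYC against MYC gave log2 -0.33 (95% interval -0.63 to -0.03, limma adjusted p = 0.119), and was called by edgeR (adjusted p = 0.0195), on the deposited scale (adjusted p = 0.000366) and with those 4 libraries alone (adjusted p = 0.0377).

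BAD went the other way. BAD, whose protein is kept inactive by growth factor kinases and 14-3-3 proteins, lies on chromosome 11 from 64037300 to 64052176 (hg19, minus strand). It had 85.6 and 78.7 CPM in Zab+MYC, 45.8 and 34.5 CPM in MYC, 85.4 and 86.3 CPM in Zab, and 155 and 155 CPM in WT. WT libraries were highest and MYC libraries lowest, with Zab+MYC and Zab between them and overlapping each other. BAD stood below its WT level 3.76-fold in MYC cells (log2 -1.91 ± 0.166, limma adjusted p = 1.31e-16), 1.79-fold in Zab cells (-0.84 ± 0.166, limma adjusted p = 4.95e-05) and 1.87-fold in Zab+MYC cells (-0.90 ± 0.166, limma adjusted p = 5.66e-06). Zab+MYC cells had 2.01-fold more BAD than MYC cells (1.01 ± 0.166, limma adjusted p = 2.15e-06). Zab+MYC against Zab was not called (log2 -0.06, 95% interval -0.39 to 0.27, limma adjusted p = 0.821). The counted transcript had 922 bases of exon in both Zab+MYC libraries and Zab replicate 1, and 1219 bases in the other 5. Per length of that transcript, the log2 difference of Zab+MYC against WT was -0.50 (adjusted p = 0.0258) and that of Zab against WT -0.64 (adjusted p = 0.00997). Both stayed below WT. On the deposited scale Zab against WT gave -1.37.

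BMF was near 0 outside WT cells. BMF, which senses loss of attachment and binds dynein light chain on the cytoskeleton, lies on chromosome 15 from 40380091 to 40401080 (hg19, minus strand). It had 0 and 1.42 CPM in Zab+MYC, 0 and 0 CPM in MYC, 5.74 and 2.45 CPM in Zab, and 25.2 and 28.6 CPM in WT. In tags these are 1, 0, 6 and 47 per group, and every WT library lay above every other library. BMF passed the filter through its WT libraries alone, so a gene in its place had to differ, and its differences from WT are given as a description with no test. Against a floor of 3 tags over the group, with the WT tags taken as exact, BMF in MYC was at least 21.0-fold lower than in WT, and the 95% counting interval of that ratio begins at 16.4-fold. By tag ratio Zab+MYC stood 46.9-fold below WT (95% counting interval 8.02 to 1892), and Zab stood 6.83-fold below WT (2.91 to 19.6). With 1 tag in Zab+MYC and 0 in MYC, no fold is given for that pair. Zab+MYC against Zab, 1 tag against 6, was not called (limma adjusted p = 0.0865).

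BCL2L11, the gene of BIM, which binds every survival protein of the family, lies on chromosome 2 from 111878491 to 111926022 (hg19, plus strand). It had 36.0 and 24.1 CPM in Zab+MYC, 42.0 and 36.5 CPM in MYC, 18.6 and 33.7 CPM in Zab, and 38.5 and 45.0 CPM in WT. Both Zab libraries lay under both WT libraries, and MYC and WT overlapped. Zab against WT was called at the edge (log2 -0.69 ± 0.262, limma adjusted p = 0.0456). That call ended under 14 of its 21 alternatives, among them edgeR (adjusted p = 0.0957), DESeq2 (adjusted p = 0.419) and the loss of any 1 library other than Zab replicate 2. The log2 difference was -0.29 without Zab replicate 1 (adjusted p = 0.55) and -1.08 without Zab replicate 2. MYC against WT was not called (-0.08, 95% interval -0.61 to 0.44, limma adjusted p = 0.804). On the deposited scale BCL2L11 was called lower in Zab against WT (log2 -1.19, adjusted p = 9.66e-05), in Zab+MYC against WT (-0.84, adjusted p = 0.00535) and, with Zab+MYC set against MYC, at -0.70 (adjusted p = 0.0287).

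BIK, a BH3-only gene whose protein sits largely at the endoplasmic reticulum, lies on chromosome 22 from 43506756 to 43525718 (hg19, plus strand). It had 8.76 and 4.25 CPM in Zab+MYC, 7.01 and 4.36 CPM in MYC, 2.87 and 1.22 CPM in Zab, and 6.94 and 5.30 CPM in WT. Zab libraries were the lowest and overlapped with no other group, but BIK rested on 12, 13, 3 and 10.5 tags per group and did not pass the filter. Its tag ratio of Zab to WT was 0.328 with a counting interval of 0.0583 to 1.26, which includes no change.

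Counts of called members were read against the share of all tested genes. In MYC against WT, 2 of 8 tested members were higher and 3 lower, where 27.8% and 30.4% of all tested genes were called higher and lower. In Zab against WT the counts were 2 higher and 3 lower, against 13.1% and 11.3%, with BCL2L11 and BMF among the lower genes. In Zab+MYC against WT they were 2 and 2, against 21.6% and 20.6%. In Zab+MYC against MYC 2 were higher and 0 lower, against 11.8% and 8.14%, and in Zab+MYC against Zab 1 was higher and 1 lower, against 14.3% and 12.5%. BMF is one of the lower genes in each comparison with WT and is there through the filter. The medians of the 8 genes were 0.05, 0.07, -0.00, -0.30 and -0.08 on the log2 scale in these 5 comparisons, and those of all genes lay between -0.04 and 0.00. The comparisons share groups, so their counts are not independent of each other. In bulk RNA, fewer cells with a transcript and less of it per cell cannot be told apart.

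**Figure D2:**
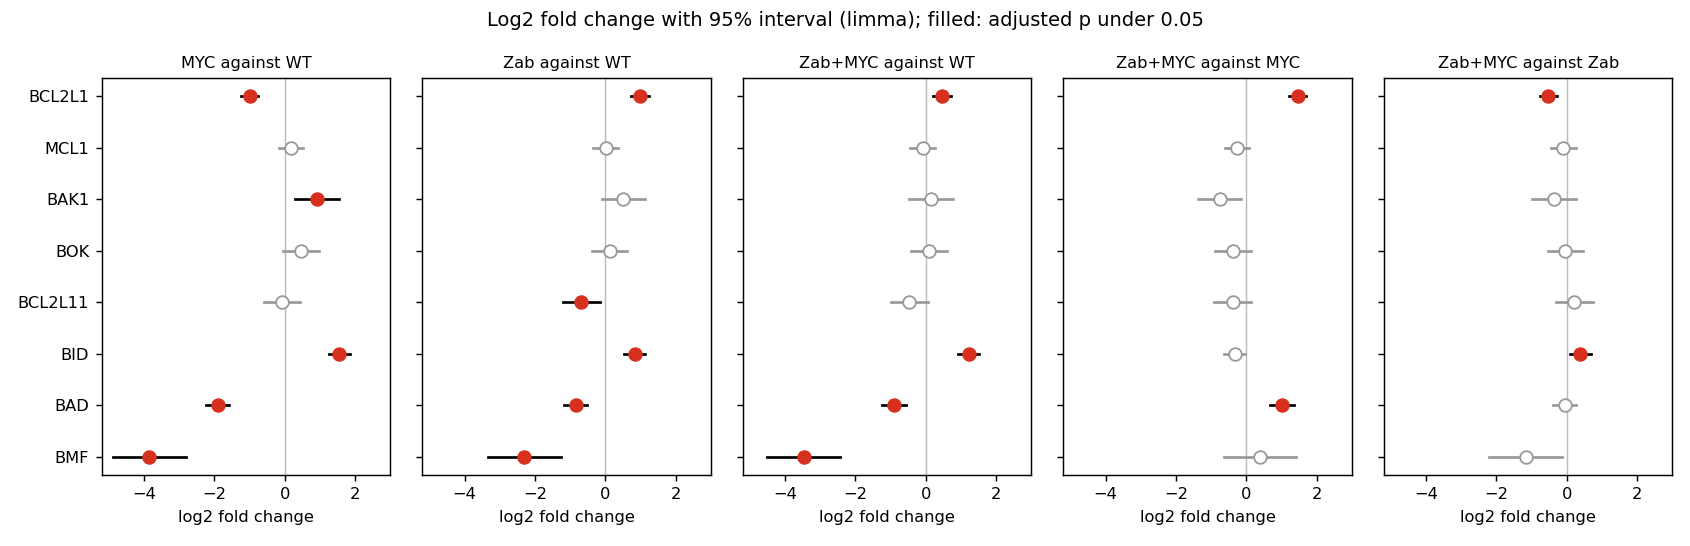
Log2 fold change (x axis) of the 8 tested genes (rows) in 5 comparisons (panels), with 95% intervals from limma; filled points have an adjusted p under 0.05. BCL2L1 lies left of 0 in MYC against WT and right of 0 in Zab against WT and in Zab+MYC against MYC; the fitted BMF values depend on the added 2 CPM and are no measure of its fold.

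Whether MYC acts alike with and without Zab was tested by the interaction, the change in Zab+MYC against Zab minus the change in MYC against WT. Of 8 tested members, 3 had a positive and 2 a negative interaction, where 14.6% and 13.3% of all tested genes were called in those directions. BMF is 1 of the 3 positive ones, and as it was tested through its WT libraries alone, the filter favoured a positive interaction for it. For BAD the change with MYC was log2 -0.06 with Zab and -1.91 without, a difference of 1.85 ± 0.235 (limma adjusted p = 1.26e-09). For BID it was 0.39 with Zab and 1.55 without, a difference of -1.16 ± 0.215 (limma adjusted p = 1.53e-05). Both changes were smaller in Zab cells than in cells without Zab, and neither call ended under any alternative run. BCL2L1 fell with MYC in both settings, with values of -0.52 with Zab and -1.005 without, and the difference of 0.48 ± 0.174 (limma adjusted p = 0.0302) was lost with DESeq2 (adjusted p = 0.26), under both other filters, and without any 1 library other than MYC replicate 1 or WT replicate 2 (log2 0.37 to 0.50, adjusted p 0.0557 to 0.164). For BAK1 the values were -0.36 with Zab and 0.91 without, a difference of -1.27 ± 0.440 (limma adjusted p = 0.0223), lost with DESeq2 (adjusted p = 0.216), with no filter, with thinned tags, on the deposited scale (adjusted p = 0.0515), and without any 1 library other than Zab replicate 1 or WT replicate 2 (log2 -1.31 to -0.84, adjusted p 0.0527 to 0.192). No test is read for BMF, which had 1, 0, 6 and 47 tags in Zab+MYC, MYC, Zab and WT. MCL1, BOK and BCL2L11 were not called (limma adjusted p = 0.444, 0.323 and 0.602). MYC's own transcript exceeded that of Zab cells 3.32-fold in Zab+MYC, and that of WT cells 14.9-fold in MYC. The pairs thus differ in how far MYC was raised. ADAR transcript was also unequal between the groups carrying Zab, at 1043 CPM with MYC overexpression and 6100 CPM without. In cells lacking Zab it stood at 239 CPM in MYC and 267 CPM in WT. The part of either level in these differences was not tested.

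**Figure D3:**
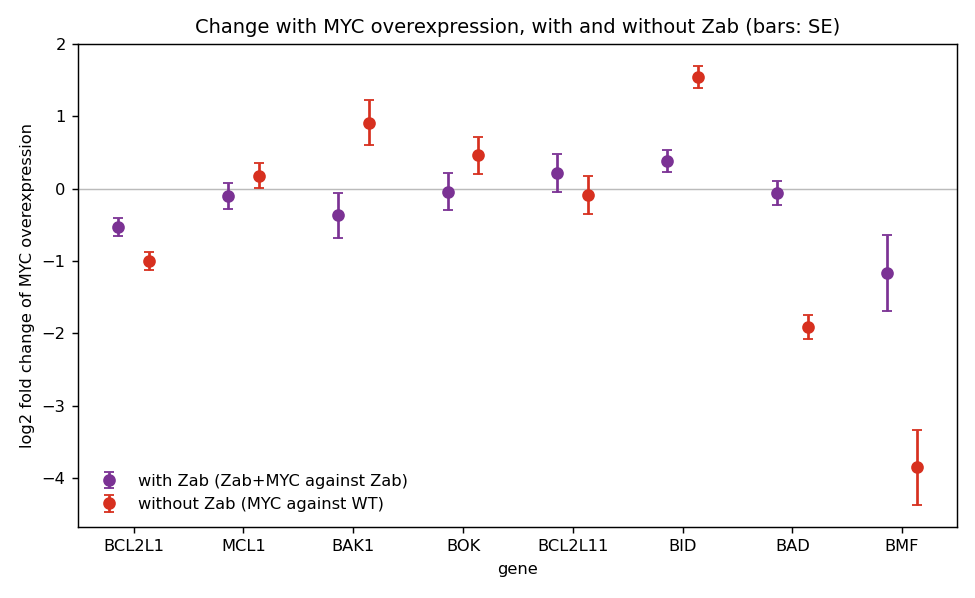
Log2 fold change with MYC overexpression (y axis) for the 8 tested genes (x axis), with Zab (Zab+MYC against Zab) and without it (MYC against WT); bars are SE from limma. BAD and BID lie nearer to 0 with Zab, while BCL2L1 is below 0 in both; BMF rests on 1 and 6 tags with Zab and 0 and 47 without.

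Levels between genes were compared per kilobase of the counted transcript, which for BAD was 922 bases in both Zab+MYC libraries and Zab replicate 1 and 1219 bases in the others. In Zab+MYC cells BAD led at 89.1 ± 5.34 CPM per kilobase (SD, n = 2), followed by BCL2L1 at 79.9 ± 4.52 and BID at 55.1 ± 0.989. With 1 length per gene, the longest counted, an alternative chosen after seeing the data, that order turned, with BCL2L1 at 76.6 ± 0.668 and BAD at 67.4 ± 4.04. In MYC cells BID led at 69.6 ± 5.82, and BAD at 32.9 ± 6.54 and BCL2L1 at 28.3 ± 1.99 did not differ beyond their spread. In Zab cells BCL2L1 led at 111 ± 2.95, ahead of BAD at 81.7 ± 15.4, and in WT cells BAD led at 127 ± 0.0116, ahead of BCL2L1 at 59.9 ± 6.01. The leading transcript of the family thus differed between MYC, Zab and WT cells, also with 1 length per gene. MCL1 stood at 18.2, 21.1, 18.7 and 18.5 CPM per kilobase in Zab+MYC, MYC, Zab and WT, and BOK, BAK1, BCL2L11, BIK, BMF and BCL2 were at 16.5 or less in every group.

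As a share of the per-kilobase sum of the 10 genes, BCL2L1 made up 28.9% ± 0.527 in Zab+MYC, 14.3% ± 0.567 in MYC, 38.9% ± 2.12 in Zab and 22.2% ± 2.38 in WT (SD, n = 2). BID made up 19.9% ± 0.406, 35.4% ± 4.04, 14.7% ± 0.532 and 8.61% ± 0.329 in the same order. MYC cells thus held the smallest share of BCL2L1 and the largest of BID. BAD made up 32.2% ± 0.699, 16.7% ± 2.80, 28.4% ± 3.08 and 47.2% ± 0.315, and with 1 length per gene 26.9% ± 0.903, 16.7% ± 2.74, 25.7% ± 0.751 and 48.0% ± 0.331. The survival genes BCL2, BCL2L1 and MCL1 together reached 35.7% ± 0.885 in Zab+MYC, 25.2% ± 1.76 in MYC, 45.6% ± 1.38 in Zab and 29.2% ± 2.79 in WT. Zab was highest and MYC lowest, and all groups lay apart from each other. With 1 length per gene this survival share was 37.7% ± 1.53, 24.9% ± 2.16, 47.2% ± 0.938 and 28.2% ± 2.80, and MYC and WT overlapped. These shares describe transcripts of the genes listed, without BAX, BBC3 and PMAIP1, and cover no protein. The members were chosen with results of these data known, so no test of the shares was run.

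**Figure D4:**
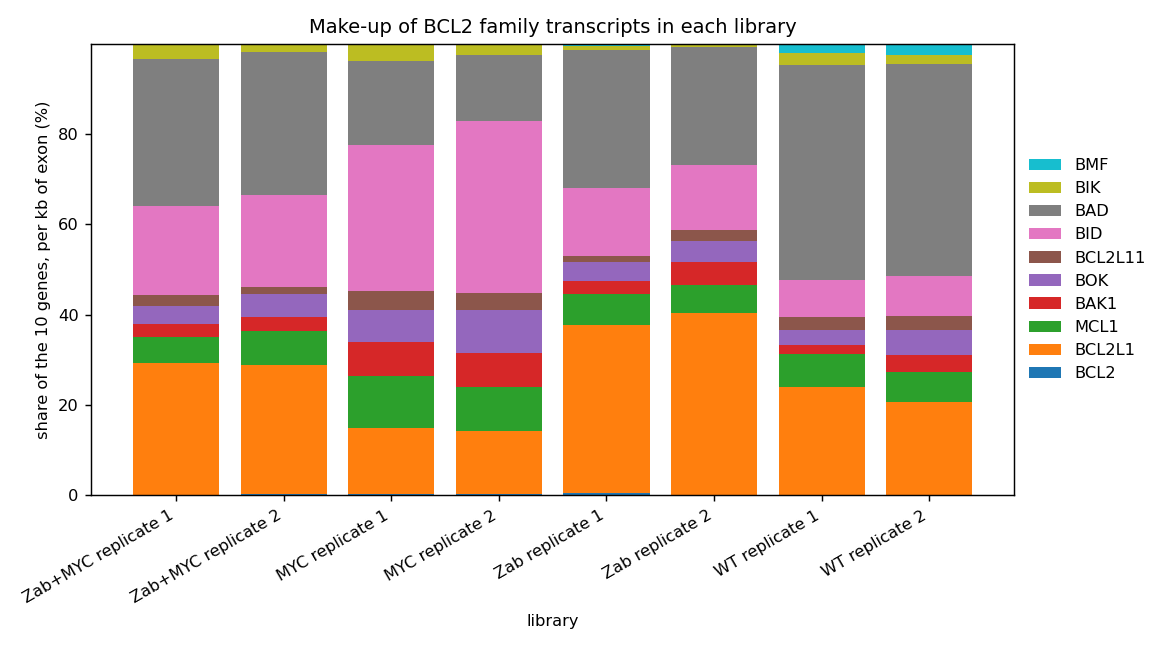
Share (y axis, % of the per-kilobase sum) of each of the 10 genes in every library (x axis). The BCL2L1 part is largest in the Zab libraries (38.9% on average), the BID part in MYC (35.4%) and the BAD part in WT (47.2%).

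Genes with the most similar pattern over the 8 libraries are given as a description, since libraries of a group share their genotype. By Pearson's r of log2(CPM + 2), BCL2L1 was most like TM9SF4 (r = 0.995), the cell cycle inhibitor gene CDKN1A (0.987) and the myosin light chain kinase gene MYLK (0.985). CDKN1A had 369 CPM in Zab+MYC, 168 in MYC, 508 in Zab and 269 in WT. BID was most like TIMM13, of mitochondrial protein import (0.995), RRP12, of ribosomal RNA processing (0.994), and SUPV3L1, a mitochondrial RNA helicase (0.994). BAD was most like MICALL2 (0.997), SHKBP1 (0.989) and the oxysterol-binding OSBPL2 (0.988), and BMF like the transcription factor gene FOXP1 (0.992), JPH3 (0.987) and CENPF (0.986).

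Other genes of the death pathway were read from lists chosen by function, with at most the 3 largest called changes per list and comparison named. BAX and the uncalled CYCS value were added after their values were seen. The shares of all tested genes given above (27.8% higher and 30.4% lower in MYC against WT, 13.1% and 11.3% in Zab against WT) stand beside every count here. The family genes BAX, which makes an effector like BAK1, and BBC3 and PMAIP1, which make BH3-only proteins, were all tested. In MYC against WT 0 were higher and 1 lower, BBC3 (PUMA), at 11.4 CPM in MYC and 24.3 in WT (1.96-fold lower, limma adjusted p = 0.0123). In Zab against WT 1 was higher, PMAIP1 (NOXA), at 84.9 CPM in Zab and 54.0 in WT (1.60-fold, limma adjusted p = 0.00902), and 0 lower. BAX was not called in any comparison, with 21.6 CPM in Zab+MYC, 20.5 in MYC, 32.3 in Zab and 21.5 in WT. Among 5 tested of 10 further BCL2-related genes, 1 was higher and 1 lower in MYC against WT. BNIP3, a relative of BNIP3L, had 32.8 CPM in MYC and 18.9 in WT (1.67-fold higher, limma adjusted p = 0.0212). BNIP3L, which marks mitochondria for removal, was lower in all 3 engineered genotypes than in WT, at 29.6 CPM in Zab+MYC, 19.6 in MYC and 38.8 in Zab against 107 in WT. These are falls of 3.39-fold, 5.02-fold and 2.62-fold (limma adjusted p = 2.93e-09, 9.96e-14 and 2.9e-06).

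Downstream of the mitochondria, 9 of 11 apoptosome and caspase genes were tested. In MYC against WT 1 was higher and 3 lower, that is 4 of 9 called, no larger a share than among all tested genes. CYCS, cytochrome c, had 233 CPM in MYC and 75.6 in WT (3.03-fold higher, limma adjusted p = 2.09e-17), and CASP6, an executioner caspase, had 22.8 CPM in MYC and 64.7 in WT (2.62-fold lower, limma adjusted p = 1.17e-06). APAF1, the apoptosome scaffold, was 1.95-fold lower (limma adjusted p = 0.0424). In Zab against WT CYCS had 78.8 CPM in Zab and 75.6 in WT and was not called (limma adjusted p = 0.808). Between Zab+MYC and Zab, CYCS was 2.30-fold higher and CASP6 1.95-fold lower, with 183 and 25.4 CPM in Zab+MYC and 78.8 and 51.5 in Zab (limma adjusted p = 1.85e-11 and 0.0016). Of 4 tested inhibitor of apoptosis genes, BIRC5 (survivin) alone was called, at 267 CPM in Zab and 414 in WT (1.54-fold lower, limma adjusted p = 2.91e-09) and at 458 in Zab+MYC against 267 in Zab (1.71-fold higher, limma adjusted p = 2.42e-12).

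Upstream, 7 of 12 death receptor pathway genes were tested. In MYC against WT 1 was higher and 4 lower, where 27.8% and 30.4% of all tested genes were. TNFRSF1A, the TNF receptor, was 2.83-fold lower, its adaptor gene TRADD 2.58-fold lower and CFLAR, the caspase-8 inhibitor FLIP, 2.17-fold lower (limma adjusted p = 2.72e-12, 1.79e-06 and 0.00206). In Zab against WT 1 was higher, the TRAIL receptor gene TNFRSF10B at 156 CPM in Zab and 109 in WT, and 0 lower. TNFRSF10B also lay above WT in the other engineered genotypes, at 164 CPM in Zab+MYC and 150 in MYC, so its rise was not confined to Zab cells. Of ZBP1, RIPK3 and MLKL, which carry death signalling from Z-form nucleic acids, MLKL alone passed the filter. MLKL had 27.8 CPM in Zab+MYC, 44.8 in MYC, 18.1 in Zab and 11.7 in WT, and exceeded its WT level 3.44-fold in MYC and 2.13-fold in Zab+MYC (limma adjusted p = 6.11e-07 and 0.00236).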

How the data were processed

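The authors deposited 1 table per library with a signal per gene in exons, per the file headers made by HOMER's analyzeRepeats on hg19 RefSeq coding genes with 1 transcript kept per symbol. Per the submitters' processing notes the tools were Trim Galore 0.6.6, STAR (version not given in the sources used here) and HOMER 4.11.1, with hg19 and dm6 as builds. Every deposited signal value was a whole multiple of 1 step per library (100% within a tolerance of 0.1 step), so tags were recovered by division, at an assumed 2 steps per tag. Per the file headers the tag folders of all 8 libraries were named for a spike-in. The sources used here give neither how the authors set that factor, whether from a spike-in or not, nor whether counting used strand. The transcript kept differed between libraries for 50.6% of genes.

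Tags of genes kept by filterByExpr (9673) were scaled by TMM (edgeR 4.0.16) to CPM and tested as log2(CPM + 2) with limma 3.58.1 (R 4.3.3) on all 8 libraries, 1 mean per group, 4 residual degrees of freedom and a mean-variance trend. This scale understates folds of low genes. Very small p-values rest on the spread pooled over genes. Fractional tags were rounded for edgeR's quasi-likelihood test and DESeq2 1.42.0, both run as alternatives. Intervals and floors cover counting error only. Of these steps only the limma test of MYC against WT was run on simulated data, and its outcome is not given here. Named genes are the 10 members, MYC and ADAR, at most the 3 largest called changes per list and comparison, BAX and CYCS where uncalled, and the 3 genes most like each member that moved by log2 1 or more. Members and lists were chosen with earlier results of these data known. A list of transcription factor genes is not reported here. Figures used matplotlib 3.10.9, and Python 3.11.15, numpy 2.4.6, pandas 2.3.3 and scipy 1.17.1 were used.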

Additional observations from a re-analysis of the deposited data

Results flagged for a closer look

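BMF, 1 of the 8 tested members, is set aside here. For 4 of the others the change with MYC overexpression was called different between cells with Zab and cells without it, by the test of that difference itself. Of all tested genes, 14.6% were called with a positive and 13.3% with a negative difference. The log2 difference was 1.85 for BAD, -1.16 for BID, 0.48 for BCL2L1 and -1.27 for BAK1. It was 2.69 for BMF, given with no test because BMF was tested through its WT libraries alone, which favoured a positive value. There the groups held 1, 0, 6 and 47 tags in Zab+MYC, MYC, Zab and WT and the value depends on the added CPM. The BAD and BID differences kept their call under every alternative run. Those of BCL2L1 and BAK1 lost it with DESeq2 (adjusted p = 0.26 and 0.216), with no filter and with most libraries left out in turn. MYC transcript stood at 706 CPM in Zab+MYC, 1263 in MYC, 212 in Zab and 83.7 in WT beside these values. For ADAR transcript the levels were 1043, 239, 6100 and 267 CPM in that order, so Zab+MYC and Zab were unequal in it. The part of either transcript was not tested.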

How the results depend on the processing

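Of 1013 repeats of single member results, 922 kept their direction and their side of the threshold, 54 lost a call, 12 gained one and 25 changed sign. All 25 were uncalled at first, and the cause was not tested. Many of the 1013 repeats could change only the side of the threshold, because their log2 equals the main one by design. These leave out a library of another group, add a replicate block, use the 4 libraries compared alone or ask for 1 transcript throughout. The repeats also include BMF, which had to differ from WT. The 922 are thus no measure of how stable the results are. Below, X/Y stands for X compared with Y, and member values are log2. With a replicate block, which leaves the log2 unchanged, all 48 member results kept their side of the threshold, for example BAD in MYC/WT at -1.91. Replicate numbers did not pair libraries (correlations of same-numbered deviations -0.0226 to 0.0143). The deposited scale shifts the median gene by -0.09 in MYC/WT, -0.51 in Zab/WT, -0.37 in Zab+MYC/WT, -0.31 in Zab+MYC/MYC and 0.14 in Zab+MYC/Zab. Signs changed on it for MCL1 (-0.52) and BOK (-0.39) in Zab/WT, BAK1 (-0.20) and BOK (-0.28) in Zab+MYC/WT, and MCL1 (0.053), BAD (0.091) and BOK (0.11) in Zab+MYC/Zab. With library totals MCL1 gave -0.029 in Zab/WT, and per transcript length BAD gave 0.14 in Zab+MYC/Zab. With thinned tags BCL2L11 gave 0.24 in MYC/WT and -0.14 in the interaction, and MCL1 0.037 in Zab+MYC/WT. With each library left out in turn, BCL2L11 ran from -0.19 to 0.024 in MYC/WT (changing sign without MYC replicate 2 or WT replicate 2), from -0.18 to 0.61 in Zab+MYC/Zab (Zab+MYC replicate 1 or Zab replicate 1) and from -0.095 to 0.69 in the interaction (Zab replicate 1). MCL1 ran from -0.14 to 0.16 in Zab/WT (Zab replicate 1 or WT replicate 2) and from -0.25 to 0.050 in Zab+MYC/Zab (Zab replicate 1). BOK ran from -0.20 to 0.45 in Zab/WT (WT replicate 1), from -0.24 to 0.41 in Zab+MYC/WT (Zab+MYC replicate 2 or WT replicate 1) and from -0.16 to 0.082 in Zab+MYC/Zab (Zab+MYC replicate 1), and BAK1 from -0.28 to 0.58 in Zab+MYC/WT (WT replicate 1).

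Members called, BMF included, were 5 in MYC/WT, 5 in Zab/WT, 4 in Zab+MYC/WT, 2 in Zab+MYC/MYC, 2 in Zab+MYC/Zab and 5 in the interaction. Where a gene had to keep 1 transcript throughout, only 3 members could be tested, and 2, 1, 1, 0, 1 and 2 were called. DESeq2 called 3 in Zab/WT and 2 in the interaction, where the fit with no filter called 3. In Zab+MYC/MYC the deposited scale called 7, edgeR 4 and the 4 libraries alone 4. In Zab+MYC/Zab 1 was called with RLE scaling, library totals, no filter, a pseudocount of 1 CPM, DESeq2, the 4 libraries alone, transcript length and thinned tags. Leaving out 1 library gave 1 to 2 there and 3 to 5 in the interaction. Over all genes limma called 2363 in Zab/WT (5018 on the deposited scale, 889 with DESeq2), 4088 in Zab+MYC/WT (2284 with DESeq2), 1933 in Zab+MYC/MYC (3522 on the deposited scale, 702 with DESeq2, 1076 to 1234 with 1 of its 4 libraries left out), 2592 in Zab+MYC/Zab (926 with DESeq2, 1702 without Zab+MYC replicate 2) and 2695 in the interaction (1118 with DESeq2). With 1 transcript throughout, 4604 genes were tested, and 2851, 1352, 2196, 1064, 1473 and 1507 were called. BCL2 and BIK, and BMF outside WT, rested on 13 tags or fewer per group, which limits them.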

Other observations

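Genes whose proteins act on the family outside the core death machinery were counted in the same way. In MYC against WT 27.8% of all tested genes were higher and 30.4% lower, and in Zab+MYC against Zab 14.3% and 12.5%. Of the outer mitochondrial membrane partners VDAC1, VDAC2, VDAC3 and MTCH2, 3 were higher and 0 lower in MYC against WT, where VDAC1, a channel for metabolites, had 483 CPM in MYC and 212 in WT (2.27-fold, limma adjusted p = 8.43e-19). VDAC2, which holds BAK1 at the membrane, had 229.8 CPM in MYC and 122 in WT (1.86-fold, limma adjusted p = 2.62e-09). Between Zab+MYC and Zab, 3 were higher and 0 lower, with VDAC2 at 201 CPM in Zab+MYC and 107 in Zab (1.85-fold, limma adjusted p = 1.97e-08). Of 9 genes for 14-3-3 proteins, which hold phosphorylated BAD, and dynein light chains, which hold BMF and BCL2L11, 5 were higher and 2 lower in MYC against WT, with YWHAE at 429 CPM in MYC and 216 in WT (1.97-fold, limma adjusted p = 2.94e-15). In Zab+MYC against MYC 1 of the 9 was higher and 3 lower, where 11.8% and 8.14% of all tested genes were. The higher gene was SFN, 14-3-3 sigma, with 699 CPM in Zab+MYC and 275 in MYC (2.52-fold, limma adjusted p = 2.8e-24).

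Of 6 tested genes that add or remove ubiquitin on MCL1, 1 was higher and 3 lower in MYC against WT. Of all tested genes 27.8% were higher and 30.4% lower there. USP9X, a deubiquitinase that stabilises MCL1, had 103 CPM in MYC and 222 in WT (2.13-fold lower, limma adjusted p = 1.24e-11), beside an MCL1 transcript that was not called. Of the other lower genes, USP13 also removes ubiquitin, while HUWE1 adds it (1.56-fold and 1.44-fold lower, limma adjusted p = 0.0114 and 0.000183). The 1 higher gene adds ubiquitin too. By these roles its rise and the falls of USP9X and USP13 point the same way for MCL1 protein, and the fall of HUWE1 points the other way. MCL1 protein was not measured here.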
